A study of Mus musculus with 6 samples.

Results

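The non-clustered protocadherins examined here were 9 genes, Pcdh1, Pcdh7, Pcdh8, Pcdh9, Pcdh10, Pcdh17, Pcdh18, Pcdh19 and Pcdh20, of the 56953 genes in the expression table, matched by Ensembl identifier through GENCODE. The list was chosen by the measured loss of Pcdh17 between the genotypes, so the Pcdh17 values selected it and are given as a description with no test. The other 8 genes entered by family and not by their own values, but the same contrast chose the list, so their counts are also read as a description. Poly-A RNA was sequenced in bulk from mouse embryonic fibroblasts (MEFs), the connective tissue cells that grow out of embryo cultures, in 3 libraries of wild-type cells (WT) and 3 of Gαq/11 knockout cells (GαqKO). Gαq and Gα11 are the G protein subunits that link many receptors to phospholipase C-β. Both lines were a gift of 1 laboratory and were grown untreated in DMEM with fetal bovine serum. The age of the embryos and whether a line is 1 clone are not given in the sources used here, and line and genotype cannot be told apart.

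Protocadherins are single-pass membrane proteins of the cadherin superfamily that bind the same protein on a neighbouring cell. The clustered genes sit in tandem arrays and are best known for giving neurons individual surface identities, whereas the non-clustered genes are spread over the genome. Among the latter, the δ1 group (Pcdh1, Pcdh7 and Pcdh9) has a longer extracellular part, and the δ2 group (Pcdh8, Pcdh10, Pcdh17, Pcdh18 and Pcdh19) includes proteins whose tails bind the WAVE complex, which starts branched actin filaments, and so tie cell contacts to cell movement. Pcdh20 is usually set apart from both groups.

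The libraries labelled GαqKO had a different set of non-clustered protocadherins from the WT libraries. Pcdh17 went from the highest mean level of the family to at most 1 read per library with a recovered read count, Pcdh9 fell 16.5-fold and Pcdh19 fell 1.79-fold. Pcdh7 rose 24.5-fold and Pcdh18 rose 3.51-fold. The remaining 4 genes, Pcdh1, Pcdh8, Pcdh10 and Pcdh20, stayed under 10 normalized counts in all 6 libraries. A normalized count is a gene's read count divided by 1 size factor per library. The tests used limma on log2(normalized count + 1) for the 14096 genes that reached 10 normalized counts in 3 or more libraries, and adjusted p-values (Benjamini-Hochberg) are over all of these. Of the 9 members 5 passed that filter, Pcdh17 and Pcdh9 only through the WT libraries. Pcdh17 and Pcdh9 are therefore not counted as called. Of the others tested, Pcdh7 and Pcdh18 were called higher and Pcdh19 lower (adjusted p below 0.05). Over all genes tested 31.8% were called higher and 34.1% lower. With a log2 fold change past 1 as well, Pcdh7 and Pcdh18 stayed higher and Pcdh19 fell short, against 10.2% higher and 10.5% lower of all genes. In bulk RNA, fewer cells expressing a gene and less RNA per cell cannot be told apart.

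**Figure D1:**
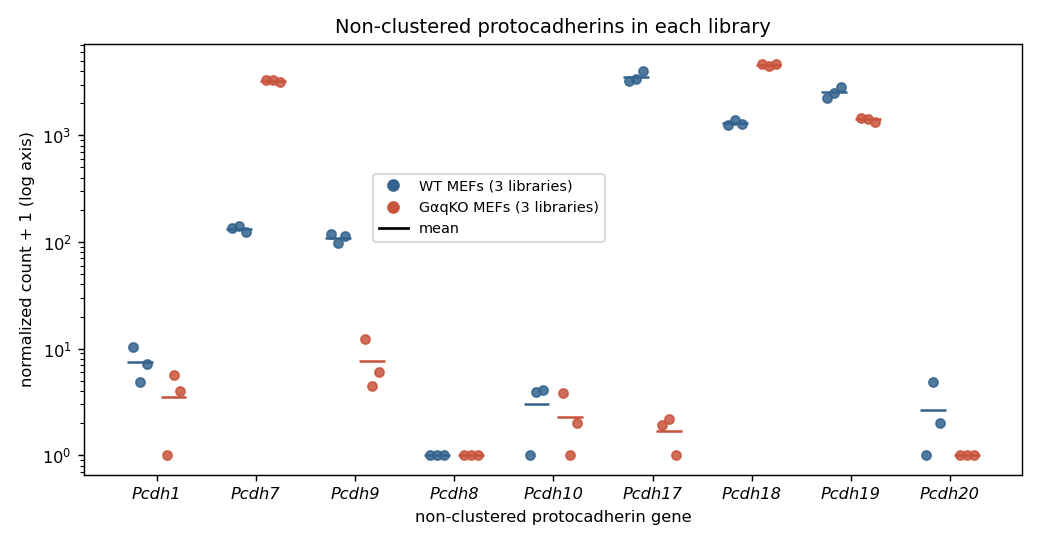
Normalized counts plus 1 (log axis) of the 9 non-clustered protocadherins, with 1 point per library for 3 WT and 3 GαqKO libraries and a line at each mean. Pcdh7 and Pcdh18 are higher and Pcdh9, Pcdh17 and Pcdh19 lower in all 3 GαqKO libraries, and the other 4 genes lie under 10 normalized counts.

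The libraries were checked against their labels first. Gnaq, the gene of Gαq, was not lower in the libraries labelled GαqKO, at 1690.8 ± 48.5 normalized counts in WT and 1926.3 ± 36.0 in GαqKO (SD, n = 3 each), while Gna11 was at 2147.9 ± 29.0 and 451.6 ± 28.7 (SD, n = 3 each), so directions rest on the labels. The authors reported loss of Gαq protein in their GαqKO MEFs by Western blot and immunofluorescence, whereas the values here are of RNA. Read totals recovered for 5 libraries ran from 9853000 to 12229175. All 10 fibroblast markers reached 10 normalized counts in at least 1 library, with sums of 84406.1 to 90166.7 in WT and 62921.3 to 66195.9 in GαqKO. Single markers went in both directions. Col1a1 fell from a mean of 16671.0 to 5774.5 normalized counts, and Col1a2, Col3a1, Vim and Fn1 were also lower in GαqKO. Pdgfra had 17.5 to 21.9 normalized counts in WT against 2273.9 to 2356.4 in GαqKO, and Thy1 was at 0.0 in 2 WT libraries. Dcn, S100a4 and Pdgfrb were higher in GαqKO too. Of 6 epithelial markers 4 reached 10, with sums of 515.0 to 540.9 in WT and 10.1 to 23.1 in GαqKO, led by Cdh1 and Krt14. Of 8 neural markers 3 reached 10, with sums of 837.7 to 954.9 in WT and 586.1 to 618.6 in GαqKO, and Sox10, Elavl3, Stmn2 and Snap25 stayed under 10 while Sox2 was listed at 0 throughout. In the endothelial list 1 of 6 reached 10 and in the muscle list 1 of 5, with sums of 12.6 to 23.4 and 13.6 to 18.5 in WT and 18.8 to 26.6 and 15.0 to 23.2 in GαqKO, and Myog and Myf5 were listed at 0 in every library. Of 5 immune markers 1 reached 10, Cd68, and the sums were 95.0 to 110.7 in WT and 62.9 to 97.1 in GαqKO. The endothelial, muscle and immune sums overlapped between genotypes. The fibroblast, epithelial and neural sums did not, and their part in the protocadherin results was not tested.

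Pcdh17 (ENSMUSG00000035566.8; GRCm39 chr14:84680965-84776442, plus strand) encodes a δ2 protein that gathers the WAVE complex and Ena/VASP proteins at contacts between axons. It had 3228.6, 3387.4 and 4010.3 normalized counts in the WT libraries and 0.9, 1.2 and 0.0 in the GαqKO libraries. The groups lay far apart, and the GαqKO values corresponded to 1 and 1 reads in the replicates 1 and 2, whose reads were recovered. By log2 fold change it ranked 2 from the lowest of the 14096 genes tested. The fitted log2 fold change of -11.10 depended on the pseudocount and ran from -11.73 to -9.28 over the alternatives.

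Pcdh9 (ENSMUSG00000055421.9; chr14:93250846-94128152, minus strand), a δ1 gene spanning 877.3 kb, lies on the same chromosome, 8.47 Mb after Pcdh17. Its normalized counts were 116.9, 96.2 and 114.0 in WT and 11.3, 3.5 and 5.0 in GαqKO, so every WT library was above every GαqKO library. The fitted log2 fold change was -3.99 (SE 0.341), with a range of -4.40 to -3.35 over 14 alternatives. Only the WT libraries carried the gene past the filter, so the value is a description and no p is given.

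Pcdh19 (ENSMUSG00000051323.17; chrX:132483609-132589819, minus strand) encodes a δ2 protein that acts together with N-cadherin and whose human gene is mutated in a form of epilepsy with intellectual disability. It had 2221.0, 2505.3 and 2858.1 normalized counts in WT and 1464.9, 1419.9 and 1346.4 in GαqKO, again with no overlap. The log2 fold change was -0.83 (SE 0.074, adjusted p = 2.7e-07, limma), short of the fold threshold. The 484 tested genes of the X chromosome had a median log2 fold change of -0.27, against -0.01 over all genes. The Y-linked genes Ddx3y, Kdm5d, Eif2s3y and Uty were at 0.0 in every GαqKO library and summed to 2566.5 to 2800.1 in WT. Xist was listed at 0 throughout, its exons lying wholly inside the span of another gene. The part of the sex chromosomes in the Pcdh19 result was not tested.

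Pcdh7 (ENSMUSG00000029108.15; chr5:57875004-58290581, plus strand) is a δ1 gene whose protein binds the phosphatase PP1 and the PP2A inhibitor SET. It had 133.7, 138.9 and 124.2 normalized counts in WT and 3270.6, 3297.6 and 3171.1 in GαqKO. Within each genotype the libraries were close together, and the log2 fold change was 4.61 (SE 0.062, adjusted p = 2.7e-15, limma), which ranked 144 from the highest of all genes tested. Of its exon bases 26.6% lie inside the spans of other genes.

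Pcdh18 (ENSMUSG00000037892.14; chr3:49697731-49711830, minus strand) encodes a δ2 protein known to bind the adaptor Dab1. Its normalized counts were 1257.2, 1381.4 and 1285.5 in WT and 4714.8, 4429.6 and 4631.3 in GαqKO, with no overlap. The log2 fold change was 1.81 (SE 0.048, adjusted p = 1.29e-12, limma), and it ranked 709 from the highest. Tested genes of chromosome 3 had a median log2 fold change of 0.32 and those of chromosome 5 one of 0.02.

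The promoters are shown because 7 of the 8 members with a window used here held a CCAAT box, a common promoter element that occurs in either orientation. Windows came from the RefSeq promoter table (GRCm38.p6), cover 250 bases before and 50 after the RefSeq start, and were placed on GRCm39 by exact match, with 1 match each. Pcdh9 had 2 windows there, of which 1 was used. CCAAT, or ATTGG where the box lies on the other strand, was present in 37.4% of the 32851 windows of the table. Below are the 250 bases before the start of the 4 tested members that hold it, 5′ to 3′ on the strand of the gene, with CCAAT or ATTGG in capitals. They are Pcdh17 at chr14:84680753-84681002 (plus strand), Pcdh9 at chr14:94128116-94128365, Pcdh19 at chrX:132589743-132589992 and Pcdh18 at chr3:49711766-49712015 (minus strand for the last 3).
Pcdh17: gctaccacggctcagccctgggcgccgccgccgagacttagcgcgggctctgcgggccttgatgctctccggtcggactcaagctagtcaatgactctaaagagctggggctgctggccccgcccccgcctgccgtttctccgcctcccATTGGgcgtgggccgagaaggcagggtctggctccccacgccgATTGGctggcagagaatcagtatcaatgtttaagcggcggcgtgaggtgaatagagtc
Pcdh9: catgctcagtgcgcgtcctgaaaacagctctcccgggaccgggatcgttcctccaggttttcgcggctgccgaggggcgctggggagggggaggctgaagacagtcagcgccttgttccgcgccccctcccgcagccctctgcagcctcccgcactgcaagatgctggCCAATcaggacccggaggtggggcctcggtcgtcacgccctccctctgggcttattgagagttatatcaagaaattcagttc
Pcdh19: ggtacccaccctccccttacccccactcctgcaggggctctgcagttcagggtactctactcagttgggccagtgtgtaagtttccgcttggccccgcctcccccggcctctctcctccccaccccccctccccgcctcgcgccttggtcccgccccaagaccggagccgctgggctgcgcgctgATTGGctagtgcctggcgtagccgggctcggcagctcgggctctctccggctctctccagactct
Pcdh18: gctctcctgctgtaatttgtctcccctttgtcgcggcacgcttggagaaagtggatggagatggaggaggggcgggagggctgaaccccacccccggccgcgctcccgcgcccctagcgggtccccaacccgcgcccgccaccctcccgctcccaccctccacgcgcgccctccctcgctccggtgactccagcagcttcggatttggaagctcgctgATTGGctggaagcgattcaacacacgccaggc

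The first base of the box lay 101 and 58 bases before the start in Pcdh17, 82 in Pcdh9, 65 in Pcdh19 and 32 in Pcdh18. It lay 68 bases before the start in Pcdh8, 50 in Pcdh10, which had another after the start, and 185 in Pcdh20. The Pcdh7 window had none. The form ATTGG was the one present in Pcdh8, Pcdh10, Pcdh17, Pcdh18 and Pcdh19, and CCAAT the one in Pcdh9 and Pcdh20. The box was present in members that fell, in Pcdh18 that rose and in members with almost no reads, and the Pcdh7 window lacked it. A part of the box in these changes was not tested. The motif GGGCGG, read on both strands, was in 4 of the 8 windows (Pcdh10, Pcdh17, Pcdh18 and Pcdh19) and in 35.7% of all windows, and it overlapped no CCAAT match. TATAAA was in the Pcdh8 window and in 13.6% of all windows. GC content ran from 43.7% in Pcdh20 to 67.7% in Pcdh19, with a median of 52.7% over the table, and CpG counts ran from 4 in Pcdh20 to 26 in Pcdh17, with a median of 7.0. The RefSeq starts of Pcdh17, Pcdh9, Pcdh18 and Pcdh19 lie 38, 37, 65 and 77 bases inside the GENCODE gene and that of Pcdh7 lies 419 bases inside. The boxes of Pcdh18 and Pcdh19 therefore lie inside the GENCODE gene, and those of Pcdh17 and Pcdh9 before its start. A letter match is a description and not a bound site.

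Levels of different members were compared as normalized counts per kb of merged exon. In WT, Pcdh17 was at 270.1 ± 31.5, Pcdh18 at 240.6 ± 12 and Pcdh19 at 239.7 ± 30.3 per kb (SD, n = 3 each), and their ranges of 246.2 to 305.8, 231.3 to 254.1 and 210.6 to 271.0 overlapped. Pcdh9 at 11.8 ± 1.22 and Pcdh7 at 7.63 ± 0.431 per kb (SD, n = 3 each) came next, with ranges that did not overlap. In GαqKO the order was Pcdh18 at 844.7 ± 27, Pcdh7 at 187.2 ± 3.84 and Pcdh19 at 133.7 ± 5.67 per kb (SD, n = 3 each), each apart from the next, and Pcdh9 followed at 0.713 ± 0.446. Per kb of the longest transcript the first 6 places in WT and all places in GαqKO were in the same order, while Pcdh10 and Pcdh20 changed places in WT.

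As a share of the summed level per kb, WT libraries held on average 35.0% Pcdh17, 31.3% Pcdh18 and 31.0% Pcdh19. GαqKO libraries held 72.4% Pcdh18, 16.0% Pcdh7 and 11.5% Pcdh19. The sum over the 9 members was 770.8 ± 62.1 per kb in WT and 1166.8 ± 28.0 in GαqKO (SD, n = 3 each). It was therefore higher without Pcdh17 than with it, and 1 gene, Pcdh18, made up most of it. This sum includes the gene that chose the list and was not tested.

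**Figure D2:**
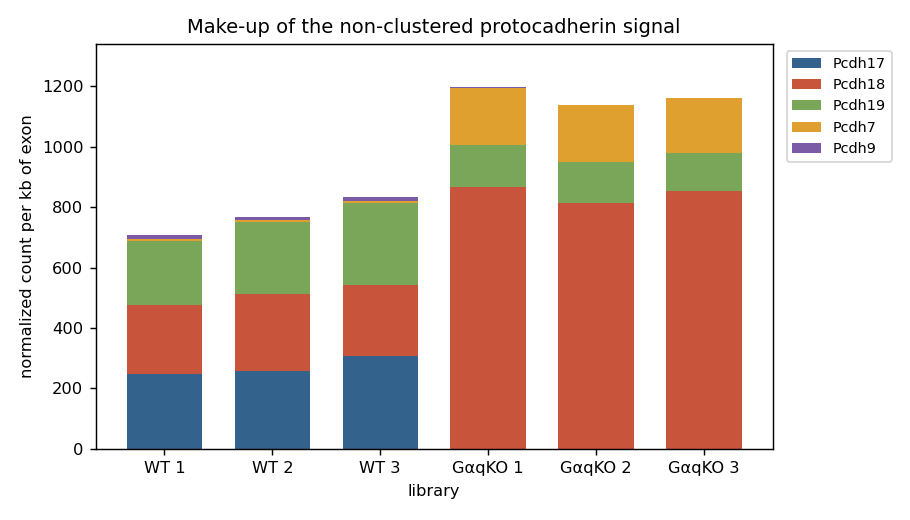
Normalized count per kb of exon, stacked over the 5 members that passed the filter, with 1 bar per library (WT 1 to 3, GαqKO 1 to 3). The 3 WT bars hold Pcdh17, Pcdh18 and Pcdh19 in similar shares, and the 3 GαqKO bars are mostly Pcdh18 with Pcdh7 and Pcdh19.

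The 4 members with low values were not tested. Pcdh1 (ENSMUSG00000051375.16), a δ1 gene of epithelia and vessels whose protein serves New World hantaviruses as a receptor, had 9.4, 3.9 and 6.1 normalized counts in WT and 0.0, 4.6 and 3.0 in GαqKO, which overlap. Pcdh10, a δ2 gene known from axon growth, had 0.0, 2.9 and 3.1 in WT and 2.8, 0.0 and 1.0 in GαqKO, and Pcdh20 had 0.0, 3.9 and 1.0 in WT and 0.0 in each GαqKO library. A count of 0 allows up to 3 reads in a library, so no difference was detectable for them at this depth. Pcdh8 was listed at 0 in all 6 libraries.

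Overlap with other genes limits how the zeros can be read, and the cause of the pattern was not tested. Genes whose exons lie wholly inside the span of another gene, with no exon base shared, were listed at 0 in every library in 84.3% of 541 cases, against 29.0% of the 9686 genes that overlap no other gene. Pcdh8 has 100.0% of its exon bases inside another gene's span and 46.5% inside another gene's exons, and Pcdh10 has 62.8% inside other spans. All 59 clustered protocadherins were listed at 0 in every library as well. Zeros of these genes are therefore reported as the table lists them and not as absence of the transcript.

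Long genes chosen for their low counts served as a reference for the level left for Pcdh9. Among 203 genes with spans over 300 kb, a mean under 30 normalized counts and little overlap, the median count per Mb of span was 19.1, 3.0 and 14.4 in WT and 14.1, 22.9 and 9.3 in GαqKO. The limit on the mean fixed that these levels are low, so they do not describe long genes in general. The 9 members were held out of this set, while Pcdh11x and Pcdh15 were not. Pcdh9 had 133.3, 109.6 and 129.9 per Mb in WT, above the upper quartile of these genes in each library. In GαqKO it had 12.8, 4.0 and 5.7 per Mb, below their median in each library. The remaining Pcdh9 counts were thus no higher than in long genes with few reads.

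Pcdh11x and Pcdh15, long protocadherin genes outside the list, had low counts in both genotypes. Per Mb of span Pcdh11x had 16.8, 0.0 and 19.7 in WT and 12.1, 37.3 and 16.2 in GαqKO, above the upper quartile of the long genes (34.0 and 14.7) in GαqKO replicates 2 and 3. Pcdh15 had 14.1, 0.6 and 15.8 in WT and 12.7, 17.2 and 11.0 in GαqKO, between the quartiles in each library. Pcdh11x had 10.4, 0.0 and 12.2 normalized counts in WT and 7.5, 23.1 and 10.1 in GαqKO, and Pcdh15 had 21.9, 1.0 and 24.4 and then 19.7, 26.6 and 17.1. Both were lowest in WT replicate 2, the library with the lowest median over long genes. Neither was called (adjusted p = 0.173 and 0.224, limma), and with single libraries left out their log2 fold changes ran from 0.10 to 1.96 and from -0.15 to 1.70. Pcdh12 stayed under the filter.

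**Figure D3:**
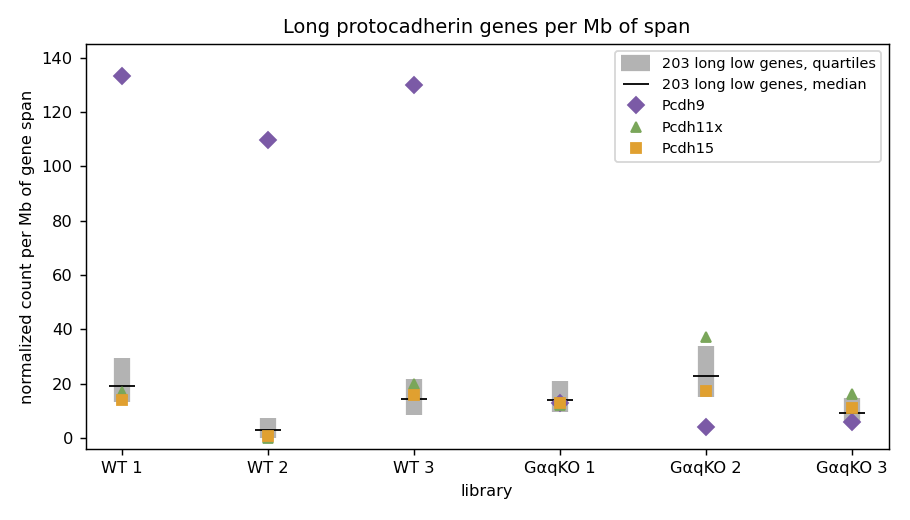
Normalized count per Mb of gene span in each library for Pcdh9, Pcdh11x and Pcdh15, beside the quartiles (grey) and median (black) of 203 long genes with low counts. Pcdh9 stands at 109.6 to 133.3 per Mb in WT and at 4.0 to 12.8 in GαqKO, below the median of the long genes in all 3 GαqKO libraries.

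Pcdh17, Pcdh8, Pcdh20 and Pcdh9 share chromosome 14, so genes around Pcdh17 were examined. After it, the nearest protein-coding gene was Diaph3, a formin that nucleates actin filaments, 2.12 Mb away, with 895.9, 925.8 and 939.5 normalized counts in WT and 509.9, 494.9 and 508.6 in GαqKO (log2 fold change -0.87, adjusted p = 1.07e-08, limma). Tdrd3, 2.88 Mb away, fell by 0.35 on the log2 scale. Mzt1 and Bora, each 14.5 Mb away, fell by 0.44 and 0.57. Before it, the nearest protein-coding genes Olfm4, Pcdh8 and Cnmd were not tested, and the nearest tested one, Sugt1 at 4.81 Mb, fell by 0.59. Wbp4 fell by 0.24, a call lost in DESeq2. Elf1, Mtrf1 and Kbtbd7 were not called, with log2 fold changes of -0.06, 0.28 and 0.05. Of the 5 nearest tested protein-coding genes on each side, Diaph3, Tdrd3, Mzt1, Bora, Sugt1 and Wbp4 were called, all lower. Over all genes tested 34.1% were called lower. Pcdh9 is among the 5 after Pcdh17 but is not counted as called, because only the WT libraries carried it past the filter. The nearest tested gene of any type, the processed pseudogene Gm7004, lies 218.6 kb after Pcdh17 and had a mean of 785.6 normalized counts in WT and 204.0 in GαqKO. Rps3a2 and Gm10110, outside the protein-coding list and 3.63 and 5.41 Mb after Pcdh17 from middle to middle, rose by 0.54 and 0.39. Within 20 Mb on either side, 38 of 119 tested genes were called higher, 43 lower (Pcdh9 among them) and 38 not called. The 469 tested genes of the chromosome had a median log2 fold change of 0.07. Calls within 20 Mb thus went in both directions, while those among the nearest tested protein-coding genes were all lower. A part of the region in the Pcdh17 and Pcdh9 values was not tested.

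**Figure D4:**
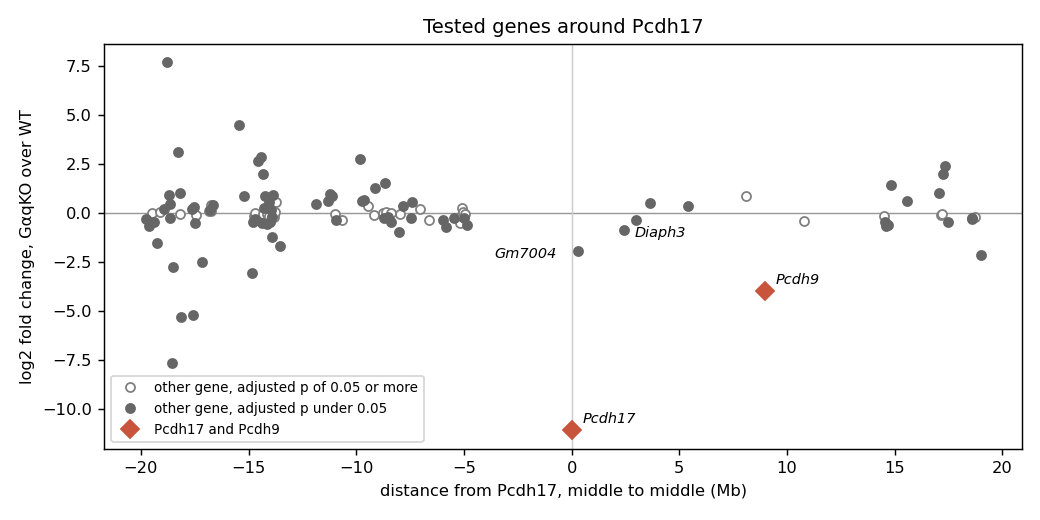
Log2 fold change (GαqKO over WT, limma) of tested genes against the distance in Mb from the middle of Pcdh17. Filled grey points have an adjusted p under 0.05, and Pcdh17 (-11.10) and Pcdh9 (-3.99) lie below the genes between them.

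Genes with a pattern like that of Pcdh17 were sought over the whole table by the root mean square difference of log2(normalized count + 1) over the 6 libraries. The closest were the transcription factor gene Sox11 (0.71), the imprinted gene Peg10 (0.83), the membrane protein gene Ildr2 (1.10), the immunoglobulin-type adhesion gene Cadm1 (1.10) and the ubiquitin ligase adaptor gene Klhl22 (1.16). Sox11 had 2416.3, 2338.2 and 2518.2 normalized counts in WT and 0.0 in each GαqKO library, and Cadm1 had 1398.2, 1212.3 and 1216.3 and then 1.9, 2.3 and 0.0. These genes lie on other chromosomes than Pcdh17. The likeness describes these libraries only.

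The giant Fat and Dachsous cadherins pair between neighbouring cells and act in planar polarity and Hippo signalling, and 5 of 7 genes on the list were tested. Fat4 was called higher, Fat1 lower and Fjx1 was not called, beside 31.8% higher and 34.1% lower of all genes tested. The 5 tested genes ran from -2.56 for Dchs2 to 7.68 for Dchs1 in log2 fold change. Their median of 0.19 was the value of Fjx1, against -0.01 over all genes tested. Dchs1 had 0.0, 0.0 and 1.0 normalized counts in WT and 260.1, 292.5 and 224.6 in GαqKO, at least 86.4-fold higher against a floor of 3 counts per library. Its binding partner Fat4 had 61.6, 60.2 and 93.6 in WT and 455.4, 381.6 and 368.6 in GαqKO, a 5.59-fold rise (adjusted p = 1.05e-08, limma). Both genes of this ligand and receptor pair were thus higher in every GαqKO library. Dchs2 had 48.9 ± 3.9 in WT and 9.7 ± 6.9 in GαqKO, and Fat1 fell from 3943.3 ± 929.9 to 2194.3 ± 100.5 normalized counts (SD, n = 3 each). Fjx1, which encodes a kinase-related secreted protein, was not called, and Fat2 and Fat3 were under the filter. Dchs1 passed it only through GαqKO and Dchs2 only through WT, so no p is given for them and they are not counted as called.

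The 13 genes of the WAVE complex and actin regulators bound by δ2 tails were all tested, with a median log2 fold change of -0.05. Enah, Vasp and Brk1 were called higher and Wasf1, Wasf2, Abi1, Raph1 and Evl lower, and 4 were not called. Among all genes tested 31.8% were called higher and 34.1% lower. Enah and Vasp, of the Ena/VASP family that extends filaments, rose by 0.88 and 0.45 on the log2 scale. Enah had 1448.3, 1543.6 and 1527.8 normalized counts in WT and 2865.9, 2832.8 and 2608.2 in GαqKO. Their relative Evl fell by 0.68. The WAVE proteins Wasf1 and Wasf2 fell by 0.73 and 0.86, while Wasf3 was not called (0.19, adjusted p = 0.0967, limma). Abi1, a subunit of the complex, had 2521.7, 2715.1 and 2490.7 in WT and 1223.5, 1246.4 and 1206.4 in GαqKO, a log2 fold change of -1.07 (adjusted p = 2.17e-10, limma). Cyfip2 was low in both, at 27.6 ± 2.3 and 3.9 ± 3.5 normalized counts (SD, n = 3 each). It is not counted as called, because only the WT libraries carried it past the filter. Nckap1, Cyfip1 and Abi2 were not called, with log2 fold changes of 0.01, 0.03 and -0.05, and Abi2 lies wholly inside the span of Raph1 on the opposite strand. Raph1, the gene of lamellipodin, fell by 0.24, a call lost in DESeq2, and Brk1 rose by 0.14, a call lost in 8 alternatives.

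Of 9 genes for other binding partners 2 were called higher, 5 lower and 2 were not called, beside 31.8% higher and 34.1% lower among all genes tested, with a median log2 fold change of -0.17. Fzd7, a Wnt receptor, rose by 0.66 and Taok2, a kinase linked to Pcdh8, by 0.25 on the log2 scale. The Pcdh7 partners Set, Ppp1ca, Ppp1cc and Ppp2ca fell by 0.21, 0.28, 0.44 and 0.17, each well short of the fold threshold, while Pcdh7 itself rose. Smad3, a partner of Pcdh1, fell by 0.19, a call lost in DESeq2. Cdh2, the gene of N-cadherin and a partner of Pcdh19, had 752.9, 762.6 and 836.7 normalized counts in WT and 768.1, 752.7 and 757.3 in GαqKO and was not called (log2 fold change -0.04, SE 0.059). Dab1, the partner of Pcdh18, had 20.9, 2.9 and 8.1 and then 11.3, 16.2 and 7.0, which overlap. The lists of relatives and partners were chosen with earlier results of these data known.

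**Figure D5:**
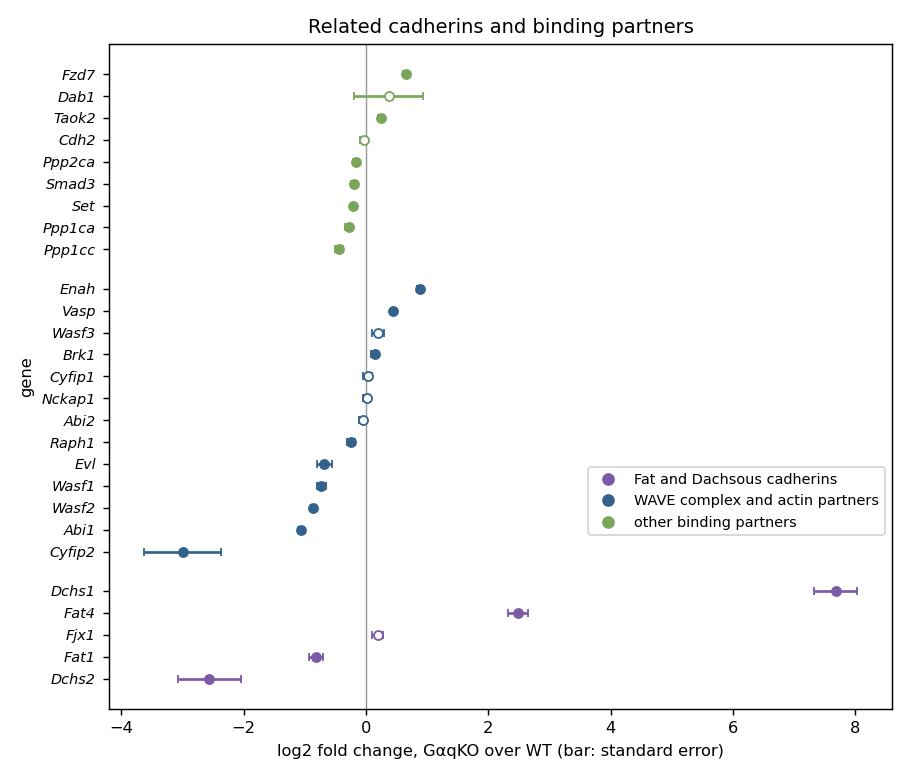
Log2 fold change (GαqKO over WT) with its standard error for the tested Fat and Dachsous cadherins, WAVE complex and actin partners, and other binding partners. Filled points have an adjusted p under 0.05 (limma), but Dchs1, Dchs2 and Cyfip2 passed the filter through 1 genotype only and are not counted as called. Apart from Dchs1 (7.68), Fat4 (2.49), Dchs2 (-2.56), Cyfip2 (-3.00) and Abi1 (-1.07) all lie within 1 log2 unit of 0.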

How the data were processed

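Poly-A selected libraries of 3 WT and 3 GαqKO MEF samples, stated as biological replicates, were sequenced as paired ends. The authors aligned reads with Rbowtie2, which does not split a read over an intron, to GRCm39, used featureCounts with a GENCODE annotation to count them and deposited a signal, normalized counts (counts divided by 1 size factor per library). Tool versions and the strand setting are not given in the sources used here.

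Groups followed the labels. In 5 libraries 100% of the values were whole multiples of 1 read within a tolerance of 0.1 reads. For GαqKO replicate 3 the reads were not recovered. The main test was limma 3.58.1 (R 4.3.3) on log2(normalized count + 1), its prior spread following a trend in mean level. Fold changes on this scale understate those of low genes. On the reads of 5 libraries, edgeR 4.0.16 called 1460 genes higher and 1554 lower past both thresholds and DESeq2 1.42.0 called 1333 and 1502, against 1432 and 1486 in limma. Symbols and positions came from a newer GENCODE annotation on GRCm39 that held 56310 of 56953 identifiers.

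The members and lists were chosen with earlier results of these data known. Named genes were the members, the listed relatives, partners and markers, the 5 nearest genes on each side of Pcdh17, and the 5 genes most like it. The labels do not say whether replicates were separate cultures, so p-values measure the spread between these libraries. Between pairs of a genotype the chi-square per gene ran from 2.41 to 5.36, above counting noise. Floors of 3 counts cover counting error only. The scripts were tested on simulated data, and pseudocounts, filters, scaling, prior spread, a replicate block and each library left out were tried as alternatives.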

Additional observations from a re-analysis of the deposited data

How the results depend on the processing

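A filter of 10 normalized counts that all 6 libraries had to reach left 831 genes higher and 765 lower past both thresholds, against 1432 and 1486, because genes below 10 in any library were no longer tested, and Pcdh9 and Pcdh17 then had no value. Pcdh7, Pcdh18 and Pcdh19 were called under that filter and under every other alternative, including each library left out. In fits without a library the filter asked for at least 10 in as many libraries as the smaller group held. With single libraries left out, 1426 to 1545 genes were higher and 1492 to 1603 lower. Deviations of libraries with the same replicate number correlated at -0.045, -0.148 and -0.064, so the numbers do not pair the libraries. With a replicate block 1421 genes were higher and 1478 lower, and Pcdh7, Pcdh18 and Pcdh19 were again called. Over the alternatives the log2 fold change of Pcdh7 ran from 4.56 to 4.65, of Pcdh18 from 1.78 to 1.85 and of Pcdh19 from -0.92 to -0.74, with adjusted p of at most 0.00112. Of 1029 gene values under an alternative 984 kept their direction and side of the threshold, whatever their change in size. Another 20 changed sign, none of them in a gene called in the main test, while 18 lost a call and 3 gained 1. The other 4, all of Pcdh17, which was given no test, differed in size with the pseudocount or the count model. Fold changes of Dchs1, Thy1, Krt14 and Ddx3y, with few counts in 1 genotype, also differed in size with these choices. Those genes kept their direction and side of the threshold, so their values are among the 984. With single libraries left out, the log2 fold changes that changed sign ran from -0.15 (without WT replicate 2) to 1.70 for Pcdh15, from -0.25 (without WT replicate 2) to 1.00 for Dab1, from -0.01 to 0.13 for Kbtbd7, from -0.04 to 0.05 for Nckap1, from -0.02 to 0.09 for Cyfip1, from -0.07 to 0.00 for Cdh2, from -0.11 to 0.01 for Elf1, from -0.41 to 0.06 for Pecam1 and from -0.14 to 0.28 for Des. On the reads of 5 libraries edgeR and DESeq2 gave Pecam1 0.03 and 0.02, Des -0.19 and -0.20 and Elf1 0.02 and 0.01, and the cause was not tested. Fjx1 was called without the trend in the prior spread, and Wasf3 without WT replicate 3. Depth limits Pcdh1, Pcdh8, Pcdh10 and Pcdh20, for which a few reads decide the value.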
